A study of Saccharomyces cerevisiae W303 with 30 samples.

Results

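The genes described here encode the budding yeast proteasome and its transcriptional activator RPN4. They are 33 of the 6692 genes counted, chosen by gene name and by no cutoff on a measured value. Earlier results of these data were known when they were chosen. The 33 are 14 genes of the 20S core (7 of the alpha ring and 7 of the beta ring), 10 of the 19S base, 8 of the 19S lid, and RPN4 (YDL020C). All 33 passed the filter on low counts in every fit. Newly synthesized RNA was measured by nsRNA-seq in 30 libraries, with 3 biological replicates in each of 10 groups. Cells were labeled with 4-thiouracil (4tU) for 6 min, so that RNA made in that window could be pulled down and sequenced. All strains were of the W303 background and grew in YPD at 30°C.

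In Med16-AID, Med15-AID, Med15/Med16-AID and Mot1/Med16-AID cells each named protein carried an IAA7 auxin-inducible degron with a V5 or HA tag, and the cells made the rice ubiquitin ligase component OsTIR1 from the GPD1 promoter at the leu2 locus. Each of these strains was treated for 30 min with 0.5 mM 3-IAA, the auxin that triggers degradation, or with the vehicle DMSO. The *med16*Δ cells lacked MED16, replaced by LEU2, and also carried a lys2 mutation. *med16*Δ and WT cells had no OsTIR1 and received neither 3-IAA nor DMSO. The libraries belong to 2 sets known only from project codes, 12 libraries of Med16-AID, *med16*Δ and WT and 18 of the other 3 strains, and each set was fitted by itself.

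The proteasome degrades proteins marked with ubiquitin. Its core is a barrel of stacked alpha and beta rings that holds the proteolytic sites, and the base, a ring of ATPases with scaffold and ubiquitin receptor subunits, unfolds substrates into it. The lid holds the enzyme that cuts ubiquitin chains off. In budding yeast the zinc finger activator Rpn4 binds the proteasome-associated control element (PACE) in promoters of proteasome genes, and the Rpn4 protein is itself a short-lived substrate of the proteasome, which closes a feedback loop. Med15 and Med16 are subunits of the tail of Mediator, the coactivator that activators contact. Mot1 is an ATPase that strips the TATA-binding protein from DNA.

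The element GGTGGCAAA, on either strand within the 300 bases before the start codon, was found in 27 of the 32 subunit genes (84.4%), against 73 of 6001 protein-coding genes in all (1.22%). It was found at 12 of 14 core genes, 8 of 10 base genes and 7 of 8 lid genes. The sites lay 75 to 174 bases before the start codon (median 111), 19 on the strand of the gene and 8 on the other. PRE5, PUP1, RPN8, RPN10 and RPN13 had no exact copy. Both RPN10 and RPN13 had a copy with 1 mismatch after the GGTGGC, a looser pattern found at 29 of 32 subunit genes and 159 of all genes (2.65%). The sites of genes to which the results return are given here on the strand of the gene, with the element in capitals. TTTGCCACC is GGTGGCAAA read from the other strand. The first 5 genes changed in Mot1/Med16-AID, PRE6 stands for the core genes that differed most between strains, and the last 2 hold the copies with 1 mismatch.
RPN2 (YIL075C, base, chrIX:220795-220835, minus strand): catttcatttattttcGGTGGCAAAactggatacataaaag
RPT5 (YOR117W, base, chrXV:544849-544889, plus strand): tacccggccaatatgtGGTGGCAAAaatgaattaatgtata
PRE2 (YPR103W, core, chrXVI:732178-732218, plus strand): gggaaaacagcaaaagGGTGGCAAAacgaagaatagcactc
RPN9 (YDR427W, lid, chrIV:1322080-1322120, plus strand): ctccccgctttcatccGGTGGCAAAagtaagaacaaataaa
RPN7 (YPR108W, lid, chrXVI:742284-742324, plus strand): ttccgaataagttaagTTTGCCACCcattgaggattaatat
PRE6 (YOL038W, core, chrXV:255212-255252, plus strand): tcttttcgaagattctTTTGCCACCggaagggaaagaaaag
RPN10 (YHR200W, base, chrVIII:498962-499002, plus strand): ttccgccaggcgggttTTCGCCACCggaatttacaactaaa
RPN13 (YLR421C, base, chrXII:965650-965690, minus strand): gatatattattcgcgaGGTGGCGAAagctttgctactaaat
The coordinates and bases are those of the R64 assembly of RefSeq, the same sequence as sacCer3. RPN2, with one of the strongest rises in Mot1/Med16-AID, and PRE2, with one of the strongest falls, thus carry the same 9 bases in these windows.

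**Figure D1:**
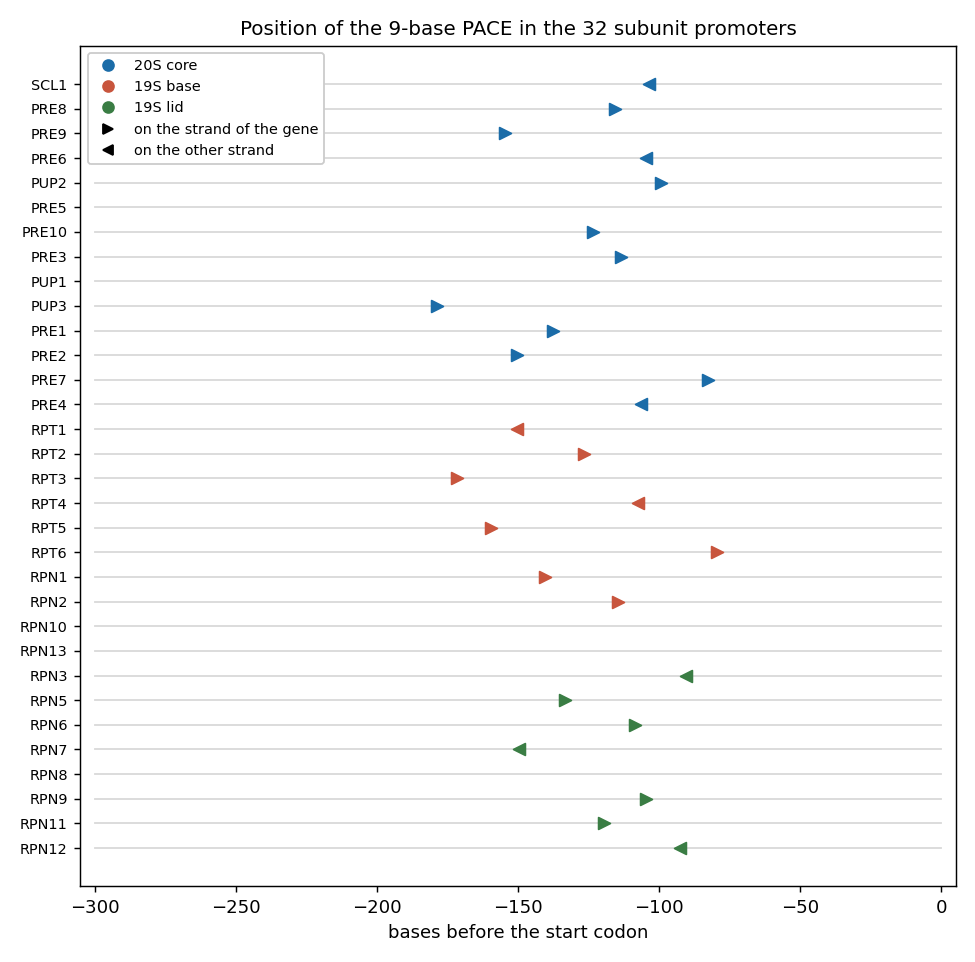
Position of GGTGGCAAA in the 300 bases before the start codon of each of the 32 subunit genes, with triangles that point along the strand of the gene or against it. The 27 sites lie 75 to 174 bases before the start codon, and 5 genes have no exact copy.

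Other motifs were less common in these windows. TATAAA, on either strand, was present at 19 of 32 subunit genes (59.4%) and at 48.2% of all genes. The Yap1 motif TTACTAA was at 4 subunit genes (12.5%) and 7.82% of all genes, and the palindromic Pdr1 and Pdr3 motif TCCGCGGA was at none of them and 0.2% of all genes. The window of RPN4 (chrIV:416709-417008) held none of the 9-base PACE, the Yap1 motif or the Pdr1 and Pdr3 motif, and 1 copy of TATAAA.

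Counts on genes ranged from 3838508 to 6912702 per library (median 4731420), and replicates of a group correlated across genes at r = 0.983 to 0.996. A subunit gene had 510 to 6203 counts in a library and RPN4 had 1944 to 6225. The deleted MED16 had 2.36 to 3.87 CPM (counts put on a per-million scale) in *med16*Δ, against 194 to 222 in WT, a log2 fold change of -6.07. The degron acts on the protein, and MED16 RNA stayed at 152 to 219 CPM in the AID strains. MOT1 RNA was at 1062 to 1350 CPM in Mot1/Med16-AID with 3-IAA and 710 to 801 with DMSO (log2 fold change 0.65, adjusted p = 1.24e-07, edgeR). Without depletion it averaged 767 CPM in Mot1/Med16-AID, 176 in Med15/Med16-AID, 175 in Med16-AID and 313 in Med15-AID (all DMSO), and 323 in WT. With 3-IAA, MOT1 RNA fell in Med16-AID (-0.55), Med15-AID (-0.38) and Med15/Med16-AID (-0.33). The part of these MOT1 differences in the comparisons between strains was not tested. Counts from the *S. pombe* spike-in were not used here, so every change below is relative to the *S. cerevisiae* genes as a whole, and a change shared by all genes would not appear. CPM are scaled by TMM, which sets the libraries level on the bulk of their genes.

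The subunit genes were transcribed at high and similar levels. Per kilobase of coding sequence, the median subunit lay at 314 to 397 CPM per kb in the 10 groups, above 89.4 to 92.5% of genes. Within a group the highest subunit was 2.07 to 3.07 times the lowest. PRE2, RPN10 or RPN2 was lowest, while RPN5 was highest in the first set and PUP3 in the second. RPN4 was above every subunit in the first set, at 605 to 778 CPM per kb (group means). In the second set it lay nearer the median subunit. It was above it in Mot1/Med16-AID, at 410 CPM per kb with 3-IAA and 405 with DMSO, against 362 and 350 for the median subunit. It was below it in Med15/Med16-AID, at 270 with 3-IAA and 279 with DMSO, against 388 and 394. In Med15-AID it was at 264 with 3-IAA and 325 with DMSO, against 314 and 315.

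**Figure D2:**
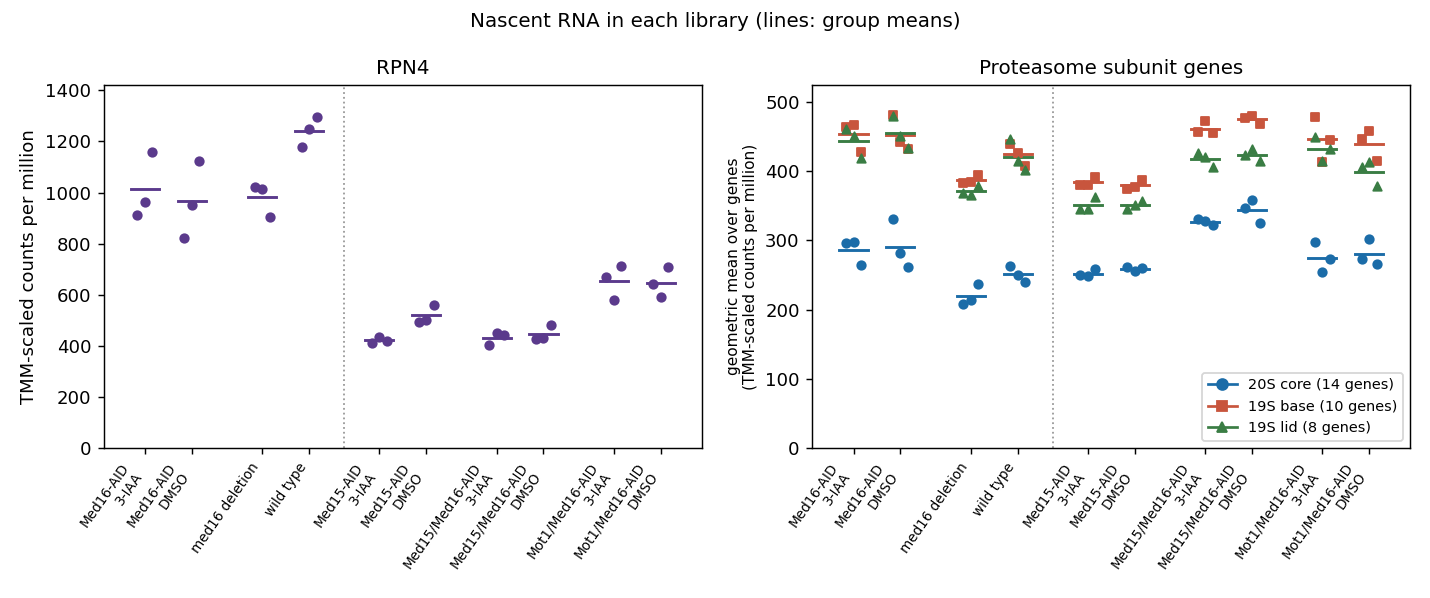
Level of RPN4 (left) and geometric mean level of the core, base and lid genes (right) in each library, in TMM-scaled CPM, with group means as lines and a dotted line between the sets. RPN4 lies at 823 to 1296 CPM in the first set and 402 to 712 in the second, while the subunit levels of the sets overlap.

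Acute depletion of Med16 gave no called change in the subunit genes. In Med16-AID, 0 of the 32 subunit genes were called higher or lower with 3-IAA than with DMSO by edgeR's quasi-likelihood test at an adjusted p under 0.05, where 11.1% of all 5710 genes tested were called, 4.08% higher and 6.99% lower. None had an unadjusted p under 0.05, and DESeq2 also called 0. The replicates of the 2 treatments overlapped for all 32 genes. The geometric mean of the core genes was 286 ± 18.6 CPM with 3-IAA and 291 ± 36.0 with DMSO (SD, n = 3 each). For the base it was 454 ± 21.7 and 452 ± 25.9 CPM, and for the lid 444 ± 22 and 455 ± 23.2 CPM, in the same order. Set against the median over all genes, the median log2 fold change was -0.06 for the core, 0.00 for the base and -0.04 for the lid. The extremes were PRE3 (-0.14) and PUP1 (0.11) in the core, RPN13 (-0.11) and RPN10 (0.13) in the base, and RPN8 (-0.15) and RPN11 (0.08) in the lid. Standard errors of single genes were 0.072 to 0.126 on the log2 scale. A change in 1 gene had to be several times its standard error to be called, so smaller changes are not excluded. In the same fit RPN4 at -0.34 in *med16*Δ over WT only just passed (adjusted p = 0.0468, edgeR). Leaving out Med16-AID DMSO replicate 1 changed the count of genes higher to 1.

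RPN4 did not pass the test in Med16-AID either. It was at 912, 964 and 1160 CPM with 3-IAA, against 823, 951 and 1124 with DMSO. The replicates overlapped, and its log2 fold change of 0.07 had no call (standard error 0.11, adjusted p = 0.758, edgeR).

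With the gene deleted, nascent RNA of the subunit genes lay slightly lower as a group. In *med16*Δ against WT, 3 of 32 subunit genes fell and 0 rose, where 9.53% of genes fell and 7.97% rose (17.5% in all). An unadjusted p under 0.05 was reached by 12. All 32 had a log2 fold change below the median of all genes, and in 17 of the 32 every *med16*Δ replicate was under every WT replicate, which held for 17.6% of all genes. The median relative to all genes was -0.19 in the core, -0.15 in the base and -0.20 in the lid. By replicate, the median over the 32 genes was -0.23, -0.21 and -0.11 relative to all genes. The core was at 220 ± 15.9 CPM in *med16*Δ and 251 ± 12.04 in WT, the base at 388 ± 6.71 and 425 ± 16.2, and the lid at 371 ± 6.84 and 421 ± 22.7 (geometric means, SD, n = 3 each).

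The 3 genes that fell in *med16*Δ, a share near the 9.53% of all genes that fell, were RPN9, PRE2 and RPN8. RPN9, a lid scaffold subunit, was at 399, 359 and 349 CPM in *med16*Δ, against 465, 436 and 441 in WT (log2 fold change -0.27, adjusted p = 0.0341, edgeR). PRE2, the chymotrypsin-like beta subunit, was at 177, 156 and 166 CPM in *med16*Δ, against 207, 206 and 189 in WT (-0.27, adjusted p = 0.0416, edgeR). RPN8, the partner of the deubiquitinase RPN11, was at 308, 319 and 316 CPM in *med16*Δ, against 404, 366 and 354 in WT (-0.25, adjusted p = 0.0426, edgeR). In each of them the groups did not overlap, but the calls are close to the threshold. With 1 library left out at a time, the call held in 2 of 6 fits for PRE2, 1 of 6 for RPN9 and 0 of 6 for RPN8. DESeq2 called 5 genes lower. Counts of 0 came from leaving out *med16*Δ replicate 2, WT replicate 1 or WT replicate 2, and 1 from leaving out WT replicate 3. Scaled by library totals, where the median of all genes moved by 0.18, none was called lower.

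The other subunit genes had values of the same sign without a call. PUP3, a beta subunit, had the lowest at -0.35, with 211, 212 and 260 CPM in *med16*Δ and 308, 284 and 276 in WT (adjusted p = 0.0757, edgeR). At the other end stood RPT4, an ATPase of the base, at -0.03. The highest value in the core was -0.09 for SCL1, and in the lid -0.05 for RPN6. The lowest value in the base was -0.22 for RPT3.

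RPN4 also fell in *med16*Δ. It was at 1024, 1016 and 904 CPM there and at 1177, 1249 and 1296 in WT, with no overlap, and fell by 0.34 on the log2 scale (standard error 0.11, adjusted p = 0.0468, edgeR). This call did not hold when any 1 of the 6 libraries was left out (-0.38 to -0.28, adjusted p 0.0633 to 0.148) or with library totals (-0.16, adjusted p = 0.273). The difference between the deletion and acute depletion was tested across the 12 libraries: it was -0.41 for RPN4 (adjusted p = 0.149, edgeR) and passed for 0 of the 32 subunits, where 6.67% of genes passed, 2.78% higher and 3.89% lower. The RPN4 difference passed without Med16-AID DMSO replicate 3 (-0.52, adjusted p = 0.0439). Without Med16-AID DMSO replicate 1 the subunit count was 3 lower, and without Med16-AID 3-IAA replicate 3 it was 1 lower.

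Depletion of Med15 gave a call for RPN4 and none for the subunit genes. In Med15-AID RPN4 was at 411, 435 and 417 CPM with 3-IAA, against 493, 502 and 561 with DMSO. The groups did not overlap, and RPN4 fell by 0.30 on the log2 scale (standard error 0.078, adjusted p = 0.0105, edgeR). The call was lost without Med15-AID 3-IAA replicate 1 (-0.27, adjusted p = 0.0541), without Med15-AID DMSO replicate 3 (-0.24, adjusted p = 0.0857) and with library totals (-0.11, adjusted p = 0.221). Of the 32 subunit genes 0 passed in either direction, against 13.7% of genes (4% higher and 9.68% lower), and 0 had an unadjusted p under 0.05. Their log2 fold changes ran between -0.13 (SCL1) and 0.09 (RPT3), with standard errors of 0.055 to 0.095. The lowest in the base was RPT2 at -0.04, and the lid ran between RPN12 at -0.06 and RPN3 at 0.08. The core was at 252 ± 5.69 CPM with 3-IAA and 259 ± 2.90 with DMSO, the base at 385 ± 6.84 and 380 ± 6.12, and the lid at 351 ± 9.996 and 351 ± 5.85 (SD, n = 3 each). With library totals as the scale the median of all genes moved by 0.18 and 22 subunit genes were called higher, while their medians relative to all genes stayed within the spread between replicates.

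Depleting Med15 and Med16 together gave no called change. In Med15/Med16-AID, 0 of 32 subunit genes were called, against 12% of genes (4% higher and 8.05% lower), and 2 had an unadjusted p under 0.05. The medians relative to all genes were -0.08 for the core, -0.05 for the base and -0.02 for the lid. Single genes ran between PRE4 (-0.14) and PRE1 (0.02) in the core, RPN13 (-0.10) and RPT1 (0.03) in the base, and RPN3 (-0.08) and RPN7 (0.04) in the lid. RPN4 was at 402, 449 and 440 CPM with 3-IAA, against 425, 430 and 481 with DMSO, with overlap (-0.05, adjusted p = 0.784, edgeR). The sign of this value turned with library totals (0.10, adjusted p = 0.288), under which 9 subunit genes were called higher and the median of all genes moved by 0.15. The change of RPN4 in Med15/Med16-AID minus that in Med15-AID was 0.24 (adjusted p = 0.981, edgeR), so the 2 strains were not shown to differ, and 0 subunits passed that test, against 0.396% of genes (0.258% higher and 0.138% lower).

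**Figure D3:**
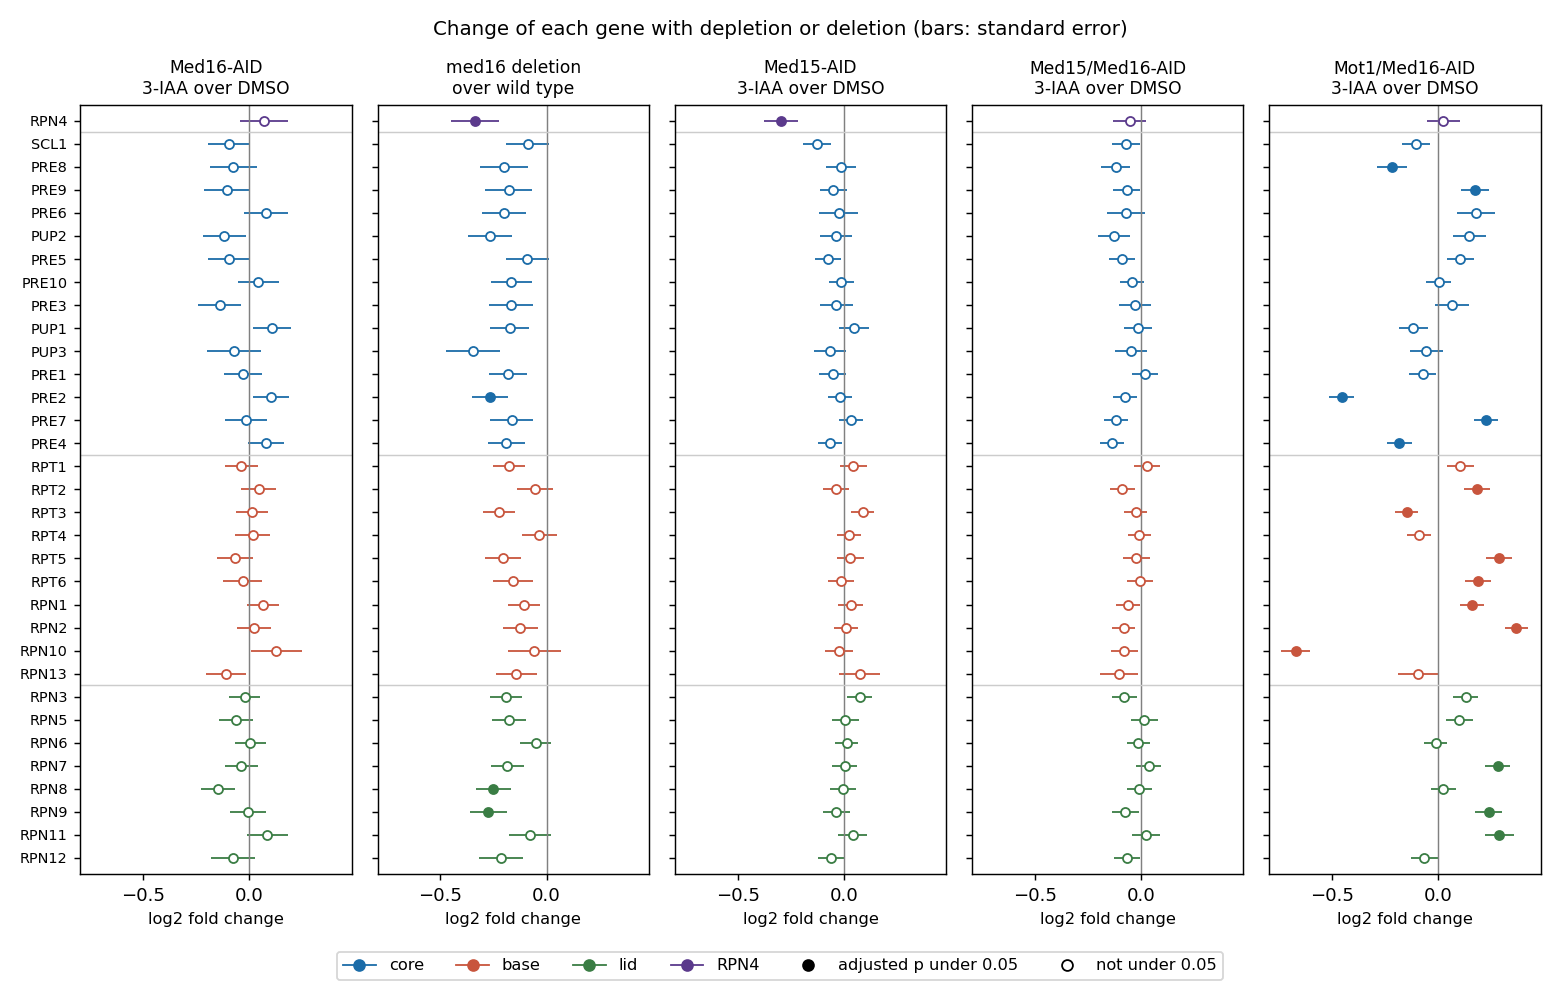
Log2 fold change of each of the 33 genes in the 5 comparisons of depletion or deletion, with standard errors as bars and filled points where the adjusted p was under 0.05 (edgeR). The filled points among subunits are 3 in *med16*Δ and 15 in Mot1/Med16-AID, where RPN2 (0.37) and RPN10 (-0.67) stand at the ends.

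Depletion of Mot1 together with Med16 moved subunit genes in both directions, and RPN4 was not called. With 3-IAA, 10 of 32 subunit genes rose and 5 fell in Mot1/Med16-AID, where 44.8% of all genes were called, 21.7% higher and 23.1% lower. The share of subunit genes called was thus near that of all genes. In the core 2 rose and 3 fell, in the base 5 rose and 2 fell, and in the lid 3 rose and 0 fell. The medians relative to all genes were -0.01 for the core, 0.15 for the base and 0.13 for the lid. Within the core the alpha ring was at 0.12 and the beta ring at -0.06, and the 6 ATPases of the base were at 0.16. RPN4 was at 671, 581 and 712 CPM with 3-IAA, against 640, 589 and 708 with DMSO (0.03, standard error 0.077, adjusted p = 0.811, edgeR).

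The strongest rises in Mot1/Med16-AID were in scaffold, ATPase and lid genes. RPN2, the large scaffold of the base, was at 1161, 1186 and 1202 CPM with 3-IAA, against 972, 925 and 866 with DMSO (0.37, standard error 0.055, adjusted p = 8.45e-06, edgeR). RPT5, an ATPase of the base, was at 643, 576 and 588 CPM with 3-IAA, against 526, 505 and 460 with DMSO (0.29, adjusted p = 0.000678). In both, all 3 libraries with 3-IAA were above all with DMSO. RPN11, the deubiquitinase of the lid, was at 434, 340 and 393 CPM with 3-IAA, against 309, 343 and 308 with DMSO (0.29, adjusted p = 0.00123). Its groups overlapped by 1 library on each side. RPN7, a lid subunit, was at 499, 456 and 468 CPM with 3-IAA, against 400, 426 and 354 with DMSO (0.28, adjusted p = 0.000597). RPN9 was at 396, 421 and 416 CPM with 3-IAA, against 367, 344 and 339 with DMSO (0.24, adjusted p = 0.00427). The groups did not overlap in either gene. PRE7, a beta subunit and the highest of the core, rose by 0.23 on the log2 scale (adjusted p = 0.00222). RPT6, RPT2, PRE9 and RPN1 rose by 0.16 to 0.19.

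The falls in Mot1/Med16-AID were led by a ubiquitin receptor and a catalytic subunit. RPN10, the receptor for ubiquitin chains that sits between base and lid, was at 150, 123 and 146 CPM with 3-IAA, against 208, 240 and 221 with DMSO. The groups were well apart, and RPN10 fell by 0.67 on the log2 scale (standard error 0.068, adjusted p = 3.31e-08, edgeR). PRE2 was at 159, 151 and 166 CPM with 3-IAA, against 214, 232 and 208 with DMSO, again without overlap (-0.45, standard error 0.059, adjusted p = 1.3e-06). PRE8, of the alpha ring, was at 247, 220 and 233 CPM with 3-IAA, against 258, 297 and 263 with DMSO (-0.22, adjusted p = 0.0167). PRE4 (-0.18, adjusted p = 0.0144) and the ATPase gene RPT3 (-0.15, adjusted p = 0.0318) fell less. The lowest lid gene, RPN12, had -0.06 and no call.

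Of these 15 genes, 8 were called in the same direction under all 14 alternatives: RPN10, PRE2, RPN2, RPT5, RPN7, RPN9, RPN11 and PRE7. The other 7 were called under 7 to 11 of them. Without Mot1/Med16-AID 3-IAA replicate 1 the counts were 6 higher and 9 lower, and without Mot1/Med16-AID DMSO replicate 3, 6 were higher. Without DMSO replicate 2 the genes lower were 2, and without 3-IAA replicate 2 or 3 they were 3. With library totals, where the median of all genes moved by 0.07, 16 were higher and 2 lower. In 8 of 32 genes every 3-IAA replicate was above every DMSO replicate and in 5 below, against 21.8% and 24.2% of genes.

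The 27 subunit genes with an exact PACE had a median of 0.12 relative to all genes in Mot1/Med16-AID (10 higher, 4 lower), and the 5 without had -0.08 (0 higher, 1 lower). The 44 other tested genes with a PACE had a median of 0.16, with 19 higher and 7 lower. Of all genes 21.7% were higher and 23.1% lower. In *med16*Δ the medians were -0.19 with PACE and -0.16 without. Split by TATAAA, the 19 subunit genes with it had a median of 0.017 in Mot1/Med16-AID (7 higher, 4 lower). The 13 without it had 0.11 (3 higher, 1 lower). No test was made of these splits.

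**Figure D4:**
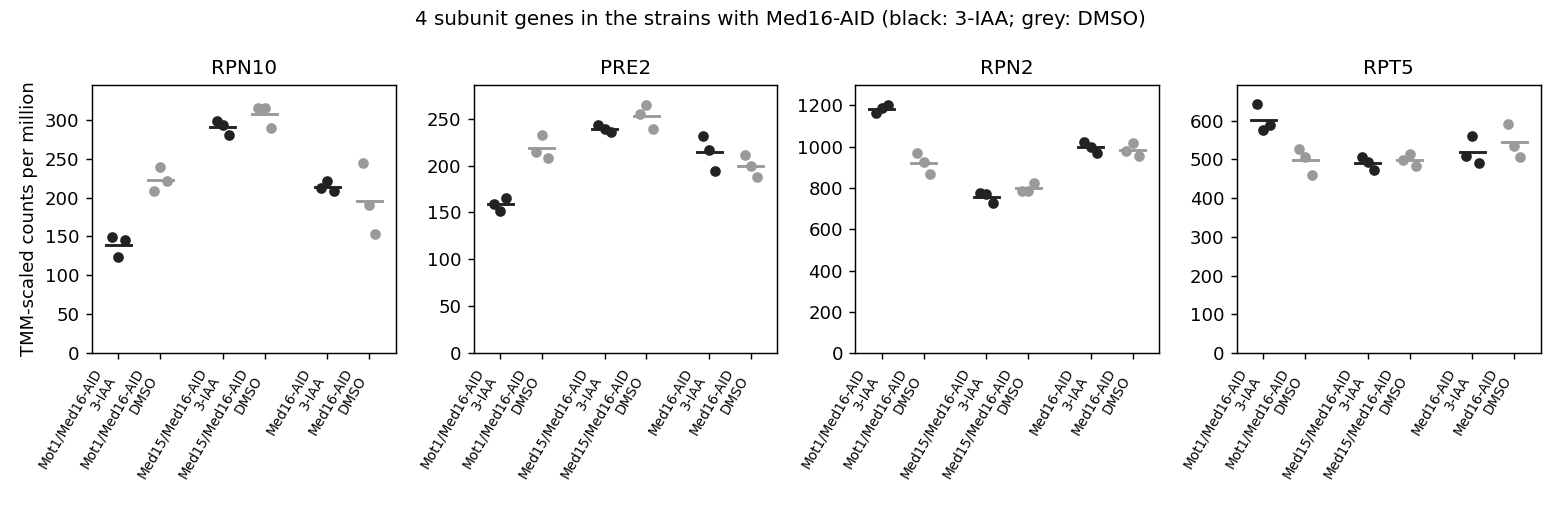
Levels of RPN10, PRE2, RPN2 and RPT5 in each library of the strains with Med16-AID, in TMM-scaled CPM, with group means as lines. With 3-IAA, RPN10 and PRE2 lie under their DMSO libraries and RPN2 and RPT5 over theirs in Mot1/Med16-AID, and in the other 2 strains the treatments overlap or lie close.

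The changes of some subunit genes, among them RPN10 and RPN2, differed from those in strains without the Mot1 degron. With both directions together, the share that passed was near or below that of all genes. Against Med15/Med16-AID the share higher was above that of all genes in the main fit and the share lower was below it. With some single libraries left out the count higher was 4 or 5, a share near the 14.6% of all genes in the main fit. The same RPN10 was at 299, 293 and 280 CPM with 3-IAA in Med15/Med16-AID, against 316, 315 and 290 with DMSO, and at 213, 221 and 209 CPM with 3-IAA in Med16-AID, against 244, 190 and 154 with DMSO. The change in Mot1/Med16-AID minus that in Med15/Med16-AID passed for 10 of 32 subunits, 8 higher and 2 lower, where 27.2% of genes passed, 14.6% higher and 12.5% lower. It was -0.59 for RPN10 (adjusted p = 3.83e-05), -0.38 for PRE2 (adjusted p = 0.00105), 0.45 for RPN2 (adjusted p = 0.000117) and 0.31 for RPT5 (adjusted p = 0.0113, all edgeR). The count higher was 4 without Mot1/Med16-AID 3-IAA replicate 1 or DMSO replicate 3. It was 5 without Mot1/Med16-AID 3-IAA replicate 3, Med15/Med16-AID DMSO replicate 2, or Med15/Med16-AID 3-IAA replicate 1 or 3. Set against Med16-AID, whose libraries belong to the other set, the difference passed for 3 genes higher and 3 lower (29.3% of genes, 14% higher and 15.3% lower), and was -0.80 for RPN10 (adjusted p = 7.99e-05) and 0.34 for RPN2 (adjusted p = 0.0039, edgeR). Without Med16-AID DMSO replicate 3 the genes higher were 7, and without Mot1/Med16-AID DMSO replicate 2 they were 5. Set and strain cannot be told apart in that comparison. For Med15/Med16-AID minus Med16-AID, 0 subunits passed, against 5.49% of genes (1.83% higher and 3.66% lower), and leaving out Med16-AID DMSO replicate 1 gave 1 lower. No strain with Mot1-AID alone was among the groups, so Mot1 depletion by itself was not measured.

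More subunit genes were called between some of the strains that had not been depleted. In Med15/Med16-AID with DMSO, 30 of 32 subunit genes were higher than in Med15-AID with DMSO and 0 lower, where 41.8% of genes were called, 21.6% higher and 20.2% lower. The core was at 344 ± 16.5 CPM in Med15/Med16-AID and 259 ± 2.90 in Med15-AID, the base at 476 ± 6.59 and 380 ± 6.12, and the lid at 424 ± 8.57 and 351 ± 5.85 (SD, n = 3 each). For all 32 genes every Med15/Med16-AID replicate was above every Med15-AID replicate, which held for 26.8% of genes. The medians relative to all genes were 0.40, 0.35 and 0.28 for core, base and lid.

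PUP1, the trypsin-like beta subunit, was at 331, 386 and 326 CPM in Med15/Med16-AID with DMSO, against 222, 208 and 232 in Med15-AID with DMSO (0.66, adjusted p = 2.1e-08, edgeR). PRE6, an alpha subunit, was at 405, 454 and 396 CPM there, against 266, 270 and 283 in Med15-AID (0.62, adjusted p = 3.81e-06). RPN10 was the highest of the base at 0.55 and RPN11 of the lid at 0.44. The genes without a call were RPN2 (0.08, adjusted p = 0.266) and RPN9 (0.10, adjusted p = 0.211). RPN4 ran the other way, at 425, 430 and 481 CPM in Med15/Med16-AID and 493, 502 and 561 in Med15-AID, with no overlap (-0.21, adjusted p = 0.0318, edgeR). The RPN4 call was lost without Med15/Med16-AID DMSO replicate 1 (adjusted p = 0.122), Med15/Med16-AID DMSO replicate 2 (adjusted p = 0.107) or Med15-AID DMSO replicate 3 (adjusted p = 0.176), and with library totals (-0.19, adjusted p = 0.0638).

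Mot1/Med16-AID with DMSO was compared with the same Med15/Med16-AID DMSO libraries, so these values share them with the comparison above. There 23 of 32 subunit genes were lower and 2 higher, where 50% of genes were called, 24.3% lower and 25.7% higher. All 14 core genes were lower, with a median of -0.28 relative to all genes, against -0.16 in the base and -0.13 in the lid. RPN10 was at 208, 240 and 221 CPM in Mot1/Med16-AID, against 316, 315 and 290 in Med15/Med16-AID (-0.47, adjusted p = 2.6e-06, edgeR). The higher genes were the scaffolds RPN1 (0.19, adjusted p = 0.00683) and RPN2 (0.19, adjusted p = 0.00559). RPN4 was higher as well, at 640, 589 and 708 CPM against 425, 430 and 481 (0.53, adjusted p = 7.37e-06). Without Mot1/Med16-AID DMSO replicate 3 the genes lower were 15, and without its replicate 1 the genes higher were 1.

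In Med16-AID with DMSO, 10 subunit genes were higher and 1 lower than in WT, where 49.1% of genes were called, 26% higher and 23.2% lower. The share higher was thus near that of all genes, and the share called in either direction was below it. The core held 7 of those higher, with a median of 0.23 relative to all genes, and the base and lid had 0.06 and 0.09. With a trend on coding length taken off, as described below, the core had 0.02, and the base and lid 0.06 each. By replicate the core was at 0.41, 0.19 and 0.03. RPN13, a ubiquitin receptor of the base, was at 211, 179 and 186 CPM in Med16-AID, against 145, 136 and 144 in WT (0.44, adjusted p = 0.00144, edgeR). PRE3, the caspase-like beta subunit, was at 315, 271 and 244 CPM in Med16-AID, against 217, 208 and 200 in WT (0.41, adjusted p = 0.00367). RPN1, the lower gene, was at 780, 804 and 796 CPM in Med16-AID, against 944, 931 and 885 in WT (-0.21, adjusted p = 0.0264). PRE1, PRE3 and RPN13 were called under all 14 alternatives, none of which took off the length trend. The count higher was 3 without Med16-AID DMSO replicate 1, WT replicate 2 or WT replicate 3, and 6 without Med16-AID DMSO replicate 2. With library totals, where the median of all genes moved by 0.13, 22 were higher and 0 lower. RPN1 lost its call without Med16-AID DMSO replicate 1, WT replicate 1 or WT replicate 2. RPN4 was lower, at 823, 951 and 1124 CPM in Med16-AID and 1177, 1249 and 1296 in WT (-0.36, adjusted p = 0.0143, edgeR). That call was lost without Med16-AID DMSO replicate 1 (adjusted p = 0.0733), without WT replicate 3 (adjusted p = 0.0576) and with library totals (-0.22, adjusted p = 0.109).

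The differences between strains moved with coding length, which runs from RPN13 and the short core genes to the long scaffolds RPN1 and RPN2. Across the 32 subunit genes, the Spearman correlation of the log2 fold change with coding length was -0.78 in Med16-AID with DMSO over WT, -0.54 in Med15/Med16-AID over Med15-AID and 0.73 in Mot1/Med16-AID over Med15/Med16-AID. Across all genes it was -0.47, -0.28 and 0.42. These are descriptions across genes, which share their libraries and are not independent. After a trend on coding length over all genes was taken off, the core medians were 0.02, 0.31 and -0.15. The base medians were then 0.06, 0.34 and -0.12, and the lid medians 0.06, 0.26 and -0.08. The core thus no longer stood above the base in the first 2 comparisons, and lay closer to base and lid in the third. All 32 subunit genes remained above 0 in Med15/Med16-AID over Med15-AID. The part of length in these differences was not tested further. In the comparisons of 3-IAA with DMSO the correlations were 0.34 over the subunits and 0.20 over all genes in Med16-AID, 0.49 and 0.15 in Med15-AID, 0.33 and 0.08 in Med15/Med16-AID, and 0.37 and 0.06 in Mot1/Med16-AID. In *med16*Δ over WT they were 0.17 and 0.03. With the trend taken off, the core, base and lid medians of these 5 comparisons moved by less than the spread between replicates. In the 3 comparisons between strains without depletion the strains also differ in culture, and in Med16-AID against WT in DMSO and OsTIR1, which cannot be told apart from the tag.

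**Figure D5:**
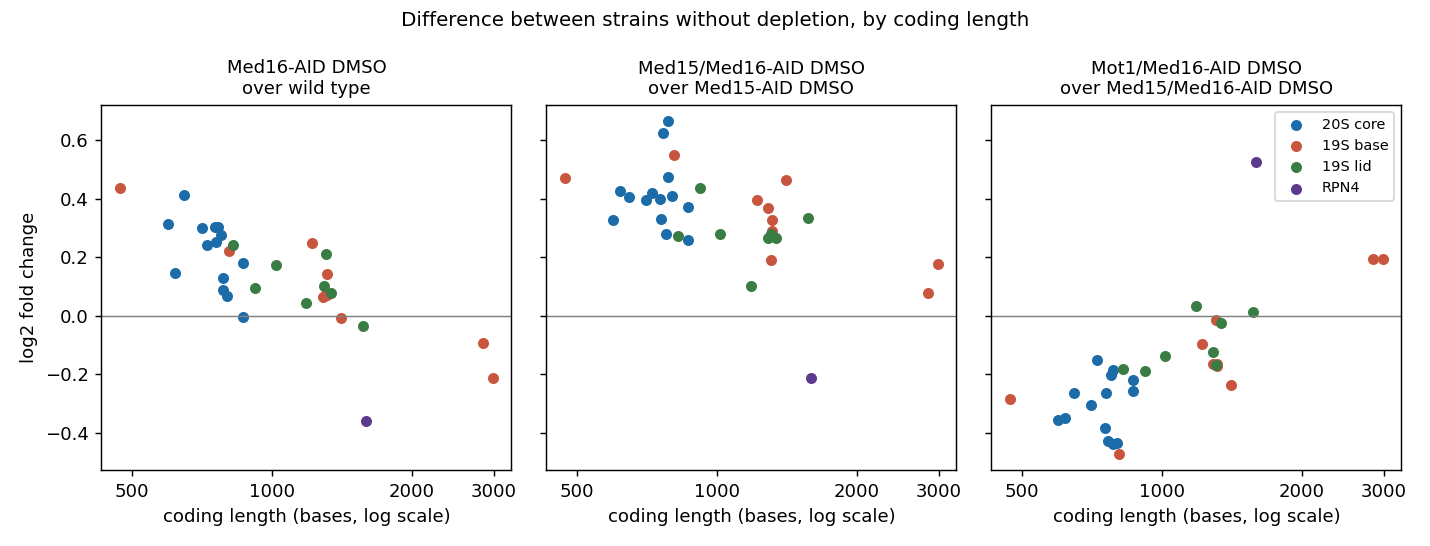
Log2 fold change of the 33 genes between strains that were not depleted, against coding length in bases on a log scale. Short genes lie above the long RPN1 and RPN2 in the first 2 panels and under them in the last, and RPN4 lies under every subunit in the first 2 (-0.36 and -0.21) and over every subunit in the last (0.53).

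Other genes of the pathway were taken as 4 lists: 10 assembly chaperones, 7 associated factors, 11 genes of ubiquitin delivery and 7 of RPN4 turnover and control. In Mot1/Med16-AID with 3-IAA, 6 of 7 associated factors rose and 0 fell, where 21.7% of all genes rose and 23.1% fell. ECM29, which tethers core and regulatory particle, was at 626 ± 34.7 CPM with 3-IAA and 374 ± 35.1 with DMSO (0.75, SD, n = 3 each). FUB1 (0.43) and HUL5, a ubiquitin ligase on the proteasome (0.36), followed. Of the ubiquitin delivery genes 7 rose and 2 fell. NPL4, a cofactor of the segregase Cdc48, was at 335 ± 3.24 CPM with 3-IAA and 213 ± 2.17 with DMSO (0.66, SD, n = 3 each). The shuttle factor gene DDI1 (0.50) and the polyubiquitin gene UBI4 (0.42) rose too, while the shuttle factor gene RAD23 (-0.26) and the ubiquitin-activating enzyme gene UBA1 (-0.25) fell. Of the chaperones 3 rose, with POC1 at 0.66 and HSM3 at 0.53, and 3 fell, with TMA17 at -0.45. Only HSF1, the heat shock activator that can drive RPN4, rose on the control list (0.35). The medians relative to all genes were 0.35, 0.23, 0.01 and 0.01 for associated factors, delivery, chaperones and control.

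In the other comparisons of depletion or deletion 0 to 2 of these 35 genes passed, where 11.1% (Med16-AID), 17.5% (*med16*Δ), 13.7% (Med15-AID) and 12% (Med15/Med16-AID) of all genes did. TMA17 rose in Med16-AID (0.56, adjusted p = 0.0493), FUB1 rose in *med16*Δ (0.49, adjusted p = 0.0458), and in Med15-AID RPN14 rose (0.27, adjusted p = 0.013) and PDR3 fell (-0.22, adjusted p = 0.0454, all edgeR). None passed in Med15/Med16-AID.

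Between strains without depletion more genes of the lists were called than in the comparisons just given, and 41.8 to 50% of all genes were called. In these 3 comparisons the changes of all genes moved with coding length (Spearman -0.47, -0.28 and 0.42, in the order below). No length trend was taken off for the lists, and the part of length in their changes was not tested. In Med16-AID with DMSO against WT, 8 of 10 chaperones were higher and 0 lower, where 26% of all genes were higher and 23.2% lower. TMA17 was at 1.01, IRC25 at 0.63 and ADD66 at 0.53. Of the associated factors 3 were higher and 1 lower, of the delivery genes 2 and 3, and of the control genes 1 and 3. In Med15/Med16-AID against Med15-AID, both with DMSO, 4 chaperones were higher and 0 lower, where 21.6% of all genes were higher and 20.2% lower. Among these 4 was UMP1, the chaperone of core maturation, at 0.59. Of the delivery genes 8 of 11 were higher and 1 lower, and of the associated factors 3 were higher and 1 lower. Of the 7 control genes 2 were higher and 3 lower, with a median of 0.07 relative to all genes. SEM1, a small lid protein not among the 33 genes, was higher by 0.69. PDR3, a zinc cluster activator with targets that include RPN4, was at 93.6 ± 9.5 CPM in Med15/Med16-AID and 270 ± 4.45 in Med15-AID (-1.51, SD, n = 3 each). In Mot1/Med16-AID against Med15/Med16-AID, 7 of 10 chaperones were lower and 2 higher, where 24.3% of all genes were lower and 25.7% higher. Of the associated factors 3 were higher and 1 lower, and of the delivery genes 2 were higher and 3 lower. Of the 7 control genes 2 were higher and 1 lower, with a median of 0.00 relative to all genes. UMP1 (-0.62) and SEM1 (-0.64) were lower, and MUB1 (0.50) and UBR2 (0.42), whose products mark Rpn4 for degradation, were higher. PACE was found at 0 of 10 chaperone genes, 2 of 7 associated factors, 3 of 11 delivery genes and 1 of 7 control genes.

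Over the 10 group means, most subunit genes shared 1 profile. The Pearson correlation of a subunit gene with the mean of the other 31 had a median of 0.77, up to 0.956 for RPN6, while RPN2 (-0.021), RPN1 (0.14) and RPN9 (0.18) stood outside. Across all genes the median correlation with the mean of the 32 was 0.022. RPN4 itself had -0.166. The 5 other genes with the most similar profile were SRY1 (0.936), YLR456W (0.924), AFB1 (0.923), HSP10 (0.906) and VPS21 (0.902). These are descriptions over 10 groups from 2 sets.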

How the data were processed

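The authors mapped nsRNA-seq reads to sacCer3 with STAR 2.6.1a and deposited raw counts per gene and library, without normalization. Each table holds unstranded, antisense and sense counts, and the sense column was used, with the unstranded one as an alternative. Groups and replicate numbers come from the sample labels. Of 6692 genes, 6008 matched the R64 annotation.

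Counts were tested with edgeR 4.0.16 (R 4.3.3; filterByExpr, TMM, quasi-likelihood F-test, prior count 0.125), in fits of 12, 18 or, across sets, 30 libraries. Benjamini-Hochberg adjustment ran over all genes tested, with 0.05 as the threshold. Alternatives were DESeq2 1.42.0, median-of-ratios or library-total scaling, other filters, only the groups compared, a replicate block, and each library left out. The test was checked on simulated data. Named genes were RPN4, called subunits (up to 5 in each direction), the extremes of core, base and lid, and up to 3 of each list, and other called genes are given where they complete a count. The members and lists were chosen with earlier results of these data known. Same-numbered libraries are not known to be paired. Python 3.11.15 and matplotlib 3.10.9 drew the figures.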

Additional observations from a re-analysis of the deposited data

Results flagged for a closer look

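The change with 3-IAA in Mot1/Med16-AID differed from that in Med15/Med16-AID, by the test of the difference itself, for 10 of 32 subunit genes, where 27.2% of all genes passed. On the log2 scale the differences were -0.59 for RPN10, -0.38 for PRE2, 0.45 for RPN2, 0.34 for PRE7, 0.31 for RPN9, 0.31 for RPT5, 0.27 for RPN11, 0.27 for RPT2, 0.24 for RPN7 and 0.22 for RPN1. PRE2, PRE7, RPN10, RPN2 and RPT5 passed under all 20 alternatives. Against Med16-AID, of the other set, 6 subunit genes passed, where 29.3% of all genes did. The differences were -0.80 for RPN10, -0.56 for PRE2, -0.27 for PRE4, 0.34 for RPN2, 0.31 for RPN7 and 0.35 for RPT5, and all but PRE4 passed under all 20 alternatives.

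Counts on the antisense strand, which the comparisons above did not use, were low for most members, with PRE1 reaching the highest share, 7.57% of its counts in 1 library. In Mot1/Med16-AID, 8 members had enough antisense counts to be tested among 3161 genes, of which 578 were called. PRE1 rose by 0.67 on the log2 scale, at a mean of 69.7 raw antisense counts per library with 3-IAA and 37.7 with DMSO (adjusted p = 0.0114, edgeR). RPN9 rose by 0.76, at 40 and 20.3 counts in the same order (adjusted p = 0.0138, edgeR). The log2 fold changes were scaled by TMM on the antisense counts, so they differ from the ratios of these raw means. Both calls rest on low counts.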

How the results depend on the processing

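Spike-in counts were not used, and the median of all genes depends on the scale. Scaling by library totals moved that median by 0.11 for Med16-AID, by 0.18 for *med16*Δ and for Med15-AID, by 0.15 for Med15/Med16-AID, by 0.07 for Mot1/Med16-AID with 3-IAA, and by 0.13 for Med16-AID DMSO over WT. The share of calls that were higher went with it (TMM against library totals): 36.9 and 81.2%, 45.5 and 83.1%, 29.2 and 89.6%, 33.2 and 86.0%, 48.4 and 63.8%, and 52.8 and 73.3% in that order, and 51.4 and 33.2% in Mot1/Med16-AID DMSO over Med15/Med16-AID DMSO. All genes called were 632 with TMM and 1022 with totals for Med16-AID. They were 999 and 2018 for *med16*Δ, 794 and 3233 in Med15-AID, and 699 and 2456 in Med15/Med16-AID.

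With library totals, subunit genes called lower were 0 in *med16*Δ, and RPN4 had -0.16 (adjusted p = 0.273). In Med15-AID 22 were called higher (RPN4 -0.11, call lost), in Med15/Med16-AID 9 were higher and RPN4 changed sign to 0.10, and in Mot1/Med16-AID 16 were higher and 2 lower. In Med16-AID DMSO over WT 22 were higher and 0 lower and RPN4 lost its call (-0.22), as it did (-0.19) in Med15/Med16-AID DMSO over Med15-AID DMSO, and 0 subunits were higher in Mot1/Med16-AID DMSO over Med15/Med16-AID DMSO. In Mot1/Med16-AID minus Med15/Med16-AID 3 were higher and RPN4 changed sign to -0.0047 (adjusted p = 0.979). DESeq2 called 5 lower in *med16*Δ. Fits of only the groups compared, which hold fewer libraries, called 6 higher and 2 lower in Mot1/Med16-AID and 5 higher in its difference from Med15/Med16-AID. A coding-length trend, added after seeing the data, gave core medians of 0.021, 0.31 and -0.15 in the 3 comparisons without depletion. The base medians were 0.059, 0.34 and -0.12, and the lid medians 0.057, 0.26 and -0.081. Other causes were not tested.

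Same-numbered libraries correlated at mean r of -0.19 to 0.16, and no comparison had all 3 pairs over 0.1, so the numbers were not taken to pair samples. In Med15-AID every library correlated best with its own number, a hint from the data only. With the replicate block, 4 subunits were higher in Mot1/Med16-AID minus Med15/Med16-AID, 9 higher and 4 lower in Mot1/Med16-AID, 2 lower in *med16*Δ and 7 higher in Med16-AID DMSO over WT, and the other counts of subunits called stayed as they were.

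With each library left out, RPN4 ranged between -0.33 and -0.24 in Med15-AID, -0.086 and 0.0052 in Med15/Med16-AID, -0.040 and 0.19 for Med16-AID, -0.38 and -0.28 for *med16*Δ, -0.040 and 0.10 in Mot1/Med16-AID, -0.27 and -0.15 in Med15/Med16-AID DMSO over Med15-AID DMSO, and -0.48 and -0.26 in Med16-AID DMSO over WT. It ranged between -0.52 (a call gained without Med16-AID DMSO replicate 3) and -0.30 in *med16*Δ minus Med16-AID and between -0.15 and 0.069 in Mot1/Med16-AID minus Med16-AID. Subunits called higher were 0 to 1 in Med16-AID, 6 to 13 in Mot1/Med16-AID (2 to 9 lower), 3 to 14 in Med16-AID DMSO over WT (0 to 1 lower), and 1 to 2 in Mot1/Med16-AID DMSO over Med15/Med16-AID DMSO (15 to 25 lower). They were 4 to 12 and 3 to 7 in Mot1/Med16-AID minus Med15/Med16-AID and minus Med16-AID. Subunits called lower were 0 to 2 in *med16*Δ, 0 to 3 in *med16*Δ minus Med16-AID and 0 to 1 in Med15/Med16-AID minus Med16-AID. Medians ranged between -0.14 and 0.060 for the core in Med16-AID, -0.12 and -0.050 for the core and -0.058 and -0.00032 for the lid in Med15/Med16-AID, -0.23 and -0.16 for the lid in *med16*Δ, and 0.33 and 0.37 for the base in Med15/Med16-AID DMSO over Med15-AID DMSO. Outside leaving out a library, 516 counts, medians and RPN4 values stayed on the same side of the threshold or moved by less than the replicate spread, or 1.5 times for counts, while 17 moved further, 4 lost a call and 2 changed sign.

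Standard errors of single subunit genes limit what 3 libraries a group can show, and the gene with the fewest counts had 510 in a library. Medians set against all genes do not depend on the scale, whereas counts of calls do, so the counts above are changes relative to the bulk of genes. Changes shared by all genes were not measured here. Comparisons between strains of different sets took 30 libraries in 1 fit, and there strain and set cannot be told apart.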
